A study of Caenorhabditis elegans with 6 samples.

Results

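The 260 genes of chromosomes II to V that span over 15 kb from the first to the last annotated exon base were examined in L1-stage *C. elegans* larvae deficient in nucleotide excision repair. In this pathway CSB, encoded by *csb-1*, starts transcription-coupled repair where RNA polymerase II stalls at a lesion, and XPC, encoded by *xpc-1*, recognises damage throughout the genome. A polymerase needs longer to cross a long gene than a short gene. A long template also offers more positions at which a lesion can lie in the path of the polymerase. In *C. elegans*, long genes often have large introns, and many encode large muscle, neuronal and cell surface proteins.

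Members were taken by position, span and a count minimum: a gene had to lie on chromosome II, III, IV or V, to span more than 15000 bp and to have at least 10 counts in at least 2 of the 6 libraries. All 260 genes of that span passed the count minimum, among 18421 genes tested and 46904 listed. They were set beside the 12749 shorter tested genes of the same chromosomes. Poly(A) RNA of whole, untreated larvae kept on NGM plates with OP50 bacteria was sequenced in 2 libraries for each of 3 strains: *xpc-1* (strain TG2226, allele tm3886), *csb-1* (strain RB1801, allele ok2335) and wild-type (N2). Each mutant strain carries a single allele, and nothing in the labels says that the libraries came from separate cultures, so p-values measure the spread between these libraries, which may be technical.

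The libraries held between 41643033 and 48371365 counts on genes. The *xpc-1* gene is itself a member and was low in its own mutant, as given below with its values. *csb-1*, which is not a member, stood at 17.5 and 8.04 CPM (counts relative to library size, adjusted by TMM factors) in *csb-1* larvae, 28.5 and 28.7 in *xpc-1* larvae, and 20.6 and 22.9 in wild-type. The *csb-1* libraries stood apart from each other: across the 260 long genes the Spearman correlation of TPM (a level corrected for exon length and scaled to a fixed library total) between libraries of a strain was 0.563 in *csb-1*, against 0.989 in *xpc-1* and 0.983 in wild-type. The main *csb-1* results are therefore given with each of its libraries. In whole larvae, fewer cells of a type and less RNA per cell cannot be told apart. The summed markers of neurons, body wall muscle, intestine and pharynx were all present, whereas the adult epidermal genes *col-19* and *bli-1* and the yolk genes were near 0 in all 6 libraries.

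The long genes differed from the shorter genes in structure. Their median span was 20302 bp (range 15031 to 81718 bp). Of the 260, 125 spanned up to 20 kb, 98 from 20 to 30 kb, 29 from 30 to 40 kb and 8 more than 40 kb. All were protein-coding in a later Ensembl annotation of the same build, and they were spread over chromosome II (53 genes), III (75), IV (82) and V (50). Chromosome V held 19.2% of the long genes and 32.1% of the shorter genes, while chromosome IV held 31.5% and 22.8%.

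Introns made up most of the span. The median intron share was 81.0% in long genes and 36.3% in shorter genes, with a median exon length of 4126.5 bp against 1128 bp and 16 against 5 merged exons. In 37 long genes a single intron took up more of the span than everything else together. A protein-coding gene lay inside 70 of the long genes (26.9%), compared with 2.50% of shorter genes, and exons of 105 (40.4%) overlapped another gene. Strand was not used in counting and reads on exons of several genes were not assigned, so the counts of such genes are less certain. The span is that of the annotation, and whether L1 larvae transcribe it in full was not tested. Only 31 of the 260 have the identical span in that later annotation.

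Long genes were well expressed. Their median level was 35.5 TPM in *xpc-1*, 31.3 TPM in *csb-1* and 34.3 TPM in wild-type larvae, each a mean of 2 libraries. Shorter genes had medians of 10.6, 8.68 and 9.97 TPM in the same strains. In wild-type, 240 long genes (92.3%) exceeded 10 TPM, against 49.9% of shorter genes, and only 2 were below 1 TPM. The higher level depends on the length used: with TPM computed from span in place of exon length, the medians were 10.9, 9.28 and 9.97 TPM for long genes and 8.36, 6.90 and 7.58 TPM for shorter genes.

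**Figure D1:**
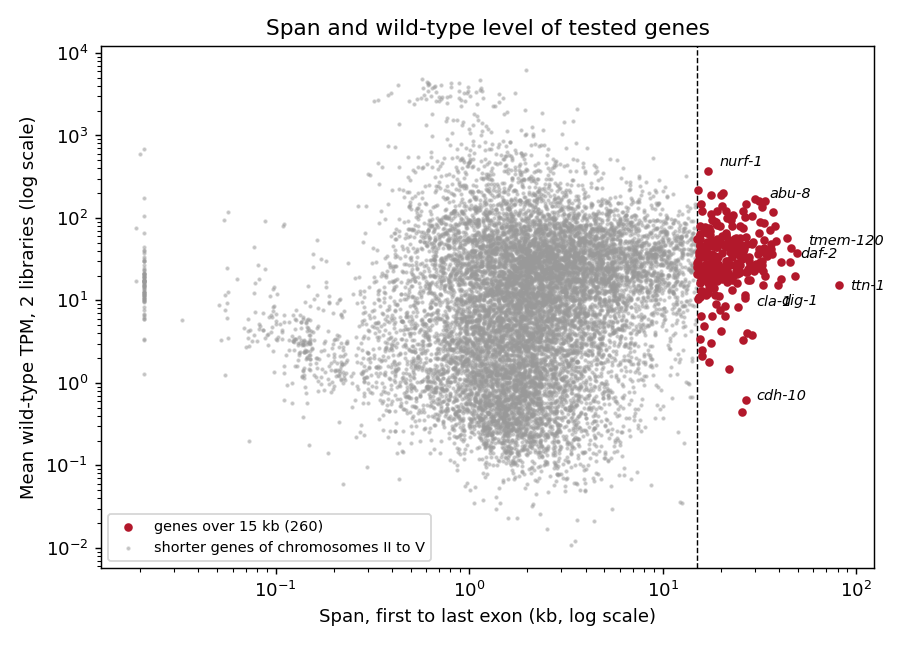
Mean wild-type TPM (2 libraries, log scale) of each tested gene of chromosomes II to V against its span in kb (log scale), with long genes in red and shorter genes in grey. The long genes form a band around their median of 34.3 TPM, from *nurf-1* at 369 TPM down to 2 genes below 1 TPM.

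The level of the whole group was alike in *xpc-1* and wild-type libraries and differed between the *csb-1* libraries. Medians were 35.7 and 35.4 TPM in the *xpc-1* libraries, 41.8 and 18.3 TPM in *csb-1* replicates 1 and 2, and 33.8 and 34.4 TPM in wild-type. Their share of all counts was 4.94% and 4.87% in *xpc-1*, 5.56% and 3.20% in *csb-1*, and 4.87% and 4.79% in wild-type. Thus *csb-1* replicate 1 lay above and replicate 2 below all other libraries. The shorter genes showed the same drop in *csb-1* replicate 2, with a median of 4.38 TPM there, against 9.93 TPM in *csb-1* replicate 1 and a mean-based median of 9.97 TPM in wild-type. After TMM scaling, the median long gene was instead 0.11 above the wild-type mean on the log2 scale in *csb-1* replicate 2.

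The longest genes show how different members can be. *ttn-1* (titin, a giant muscle protein; chromosome V of WBcel235, 6120909 to 6202626) spans 81718 bp, of which 56341 bp are exon. It had 612 and 489 CPM in *xpc-1*, 681 and 501 CPM in *csb-1*, and 676 and 590 CPM in wild-type, so each mutant overlapped wild-type. *tmem-120* (chromosome III, 1468643 to 1517993) is almost as extreme in the other direction, with 1316 bp of exon and an intron of 40603 bp in a span of 49351 bp. It had 28.2 and 31.6 CPM in *xpc-1*, 37.7 and 53.2 CPM in *csb-1*, and 36.4 and 36.2 CPM in wild-type.

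Among the 10 longest genes, 6 were past the threshold in *xpc-1* (adjusted p under 0.05 in a fit of the 4 libraries compared), all of them lower, and 4 were not. Of all genes tested 36.1% were past it and 16.6% were lower, and of shorter genes of equal expression (defined below) 22.6% were lower. The 6 were not among the members that stayed past the threshold when each of the 4 libraries was left out in turn. The lower genes were *dig-1* (an extracellular matrix giant that holds neurons in place), *gcn-1* (an activator of the GCN2 kinase), *dkf-2* (protein kinase D), *kcnl-1* (a calcium-activated potassium channel), *cla-1* (an active zone protein) and *unc-22* (twitchin, a muscle kinase). *gcn-1* had 167 and 176 CPM in *xpc-1* larvae, against 243 and 276 CPM in wild-type (log2 fold change −0.58, SE 0.10, Benjamini-Hochberg adjusted p = 0.00166, quasi-likelihood test of edgeR). *kcnl-1* had 25.4 and 30.6 CPM in *xpc-1*, against 42.4 and 51.2 CPM in wild-type (−0.72, SE 0.13, adjusted p = 0.00288, same edgeR test). The groups did not overlap in either gene. *daf-2*, the insulin/IGF-1 receptor with a span of 45374 bp, had 148 and 146 CPM in *xpc-1* and 156 and 154 CPM in wild-type and was not past the threshold (adjusted p = 0.649, edgeR). *ptp-3*, a LAR-type receptor phosphatase, had 395 and 407 CPM in *xpc-1* and 339 and 367 CPM in wild-type (adjusted p = 0.113, edgeR).

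In *csb-1* larvae the libraries often fell on opposite sides of wild-type for these giants. In *gcn-1* the *csb-1* replicates were at 128 and 461 CPM, with both wild-type libraries between them. For *kcnl-1* these values were 8.18 and 71.7 CPM, again on either side of wild-type. *cla-1*, with 205 and 167 CPM in *csb-1* and 341 and 279 CPM in wild-type, lay below wild-type in both libraries.

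At the edge of the rule, *Y94H6A.5* (15031 bp) and *ncx-1* (15044 bp, a sodium/calcium exchanger) were the shortest members, while *gar-3* (14968 bp, a muscarinic acetylcholine receptor) and *chs-2* (14957 bp, a chitin synthase) were the longest genes outside it. Their log2 fold changes in *xpc-1* were 0.04, −0.04, −0.20 and 0.22 in that order. In *csb-1*, *ncx-1* had 66.7 and 97.7 CPM, both above wild-type at 60.8 and 55.2 CPM. *gar-3* lay on either side of wild-type, with 25.6 and 48.9 CPM in *csb-1* against 31.5 and 34.4 CPM, and so did *chs-2*, with 192 and 3.10 CPM in *csb-1* against 164 and 166 CPM. *Y94H6A.5* overlapped wild-type.

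The most abundant long gene was *nurf-1*, a subunit of the NURF chromatin remodelling complex, on chromosome II (14390718 to 14407905). It had 2741 and 3098 CPM in *xpc-1*, 1667 and 436 CPM in *csb-1*, and 2008 and 2274 CPM in wild-type. Both *xpc-1* libraries lay above wild-type (0.47, SE 0.11, adjusted p = 0.00980, edgeR's quasi-likelihood test), and both *csb-1* libraries lay below it, with replicate 2 far lower. *gei-4* also rose in *xpc-1*, with 502 and 541 CPM against 341 and 373 CPM in wild-type (0.57, adjusted p = 0.00181, edgeR). *akap-1*, an anchor of protein kinase A, fell to 520 and 482 CPM in *xpc-1*, against 740 and 702 CPM in wild-type (−0.51, adjusted p = 0.00292, edgeR), and *vhp-1*, a phosphatase of MAP kinases, and *abu-8* also fell. *mig-6* (papilin, a basement membrane protein), *hlh-30* (the TFEB homologue) and *mca-3* (a plasma membrane calcium pump) were not past the threshold. These 8 were the members with the highest wild-type TPM.

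In *xpc-1* against wild-type, long genes moved in both directions in nearly equal number. Of the 260, 58 rose and 62 fell at an adjusted p under 0.05 (46.2%), against 36.1% of all 18421 genes tested, of which 19.5% rose and 16.6% fell. Among shorter genes of equal expression the share was 51.0%, with 28.4% higher and 22.6% lower. It was 46.3% when shorter genes were matched on wild-type TPM, and 52.0% (33.8% higher, 18.3% lower) among those of like exon length. For that comparison the shorter genes were sorted into 10 expression bins cut at the deciles of the long genes, and each bin was given its share of long genes. The median log2 fold change was −0.01 in long genes, 0.04 in shorter genes of equal expression and −0.02 in all genes tested. The median size of change, without its sign, was 0.28 in long genes and 0.32 in the shorter genes. Changes were small: among those past the threshold 4 members rose more than 2-fold and 1 fell more than 2-fold. The 1 that fell is *xpc-1*, the gene mutated in this strain.

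These counts rest on the spread that is used. The fit of all 6 libraries, which includes the divergent *csb-1* libraries in the estimate of spread, called 0 members and 0 of all genes tested. At an unadjusted p under 0.05 (edgeR) it gave 1 member and 267 of the 18421 genes. DESeq2 on the 4 libraries called 60 members higher and 63 lower, against 3531 and 2937 of all genes. Leaving out wild-type replicate 1 or 2 cut the calls sharply among members and all genes tested. As in the main fit, shorter genes of equal expression kept a larger share of calls than members. The lone wild-type library was there assumed to vary like the *xpc-1* libraries. Median log2 fold changes were then −0.050 and 0.023 in long genes, against 0.045 and 0.077 in shorter genes of equal expression. Without *xpc-1* replicate 1 or 2 the medians of long genes were 0.026 and −0.024, again with fewer calls. Upper-quartile scaling turned the balance to 48 higher and 81 lower, against 2997 and 3734 of all genes. All 120 members past the threshold had *xpc-1* and wild-type libraries that did not overlap, and overall 94 members lay above and 107 below wild-type without overlap (77.3%, against 68.6% of all genes tested, of which 33.9% lay above and 34.6% below).

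**Figure D2:**
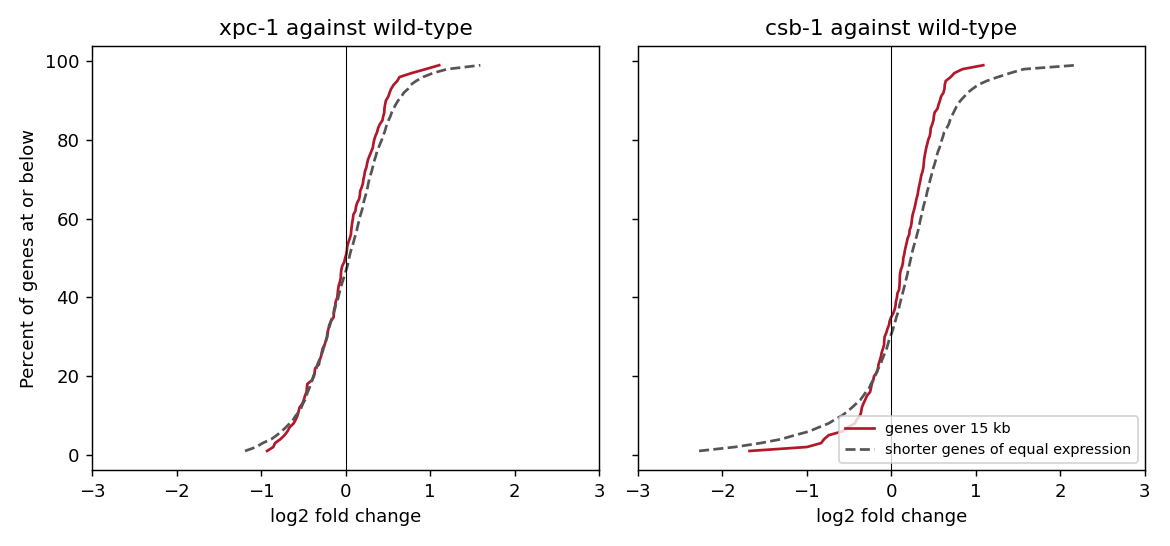
Cumulative share of genes (percent) against the log2 fold change for *xpc-1* (left) and *csb-1* (right) relative to wild-type, with long genes as a solid red line and shorter genes weighted to equal expression as a dashed grey line. The curves cross 50% at −0.01 and 0.04 in *xpc-1* and at 0.14 and 0.23 in *csb-1*, and in both panels the long genes reach less far at either end.

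Long and shorter genes were also set side by side in each library. Relative to the wild-type mean, the median long gene minus the median shorter gene of equal expression was −0.05 and −0.03 in the *xpc-1* libraries and 0.08 and −0.03 in the *csb-1* libraries on the log2 scale. In wild-type the difference was below 0.01 in size in each library. Losses of more than 2-fold affected 1.54% and 0.769% of long genes in the *xpc-1* libraries (2.42% and 1.996% of shorter genes), and 11.2% and 11.5% in *csb-1* replicates 1 and 2 (14.2% and 12.7% of shorter genes). Gains of more than 2-fold were seen in 7.31% and 2.69% of long genes in *csb-1* replicates 1 and 2 (7.80% and 14.5% of shorter genes). In the *xpc-1* libraries they were seen in 1.15% and 0.769% of long genes (2.30% and 2.50% of shorter genes).

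Span within the group had little relation to the change. Across the 260 genes, which share libraries and depth and are not independent, the Spearman correlation of the log2 fold change with span was −0.07 in *xpc-1* and −0.11 in *csb-1*. With the longest intron it was −0.09 and −0.20 in the same order. For *csb-1* replicates 1 and 2 alone, relative to the wild-type mean, it was −0.03 and −0.05 with span and −0.12 and −0.14 with the longest intron. By classes of span, weighted to equal expression, genes rising in *xpc-1* made up 30.3% at 10 to 15 kb, 24.2% at 15 to 20 kb, 22.6% at 20 to 30 kb and 12.4% above 30 kb, and genes falling made up 17.8%, 24.5%, 17.6% and 33.2%. The class above 30 kb holds 37 genes, too few to fill every expression bin, of which 5 rose and 12 fell. Most of these calls were lost without either wild-type library, as among all genes tested, and fewer were lost without either *xpc-1* library. The median log2 fold change of this class was −0.10 and stayed between −0.11 and −0.09 under those 4 fits.

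**Figure D3:**
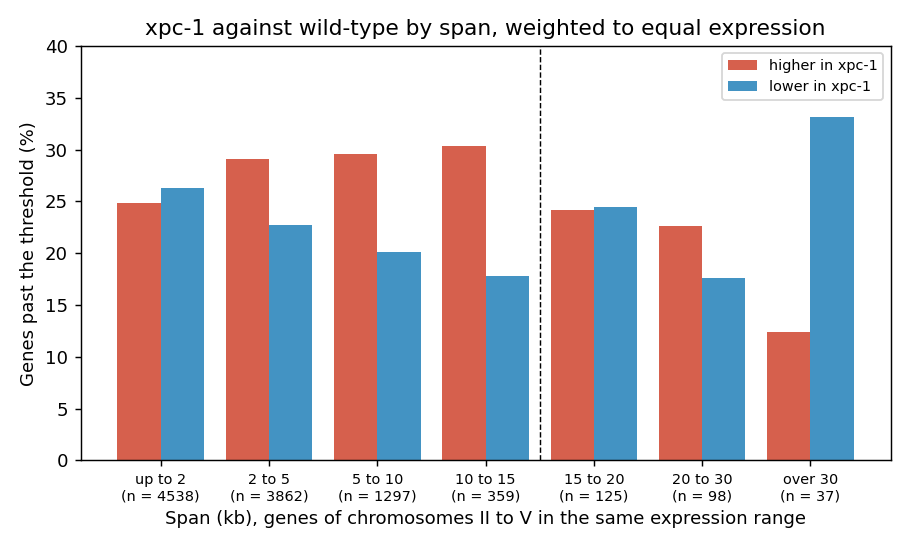
Percent of genes past the threshold in *xpc-1* against wild-type, higher in red and lower in blue, by class of span in kb, each class weighted to the expression of the long genes, with the number of genes under each pair of bars. Right of the dashed line at 15 kb the bars for higher genes go down to 12.4% and the bar for lower genes reaches 33.2% in the class above 30 kb, which holds 37 genes.

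*xpc-1* itself (WBGene00022296; chromosome IV, 1993089 to 2008993) spans 15905 bp and is thus a long gene. It had 18.0 and 17.9 CPM in *xpc-1* larvae, 73.0 and 57.7 CPM in *csb-1* larvae, and 43.5 and 40.1 CPM in wild-type. It was the most reduced member in *xpc-1* (log2 fold change −1.20, SE 0.11, adjusted p = 8.83e-05, edgeR's quasi-likelihood test) and remained past the threshold when any library was left out. Reads were counted over the whole gene, and the deleted part was not examined separately. In *csb-1* both libraries lay above wild-type (0.64, SE 0.31), although the gene was not past the threshold (adjusted p = 0.996, edgeR).

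Among the members that rose most in *xpc-1* were *cdc-25.2*, *fbn-1*, *clec-78* and *lin-42*. *cdc-25.2*, a CDC25 phosphatase that activates cyclin-dependent kinases, had 177 and 194 CPM in *xpc-1*, 314 and 31.6 CPM in *csb-1*, and 83.0 and 91.4 CPM in wild-type (1.11, SE 0.10, adjusted p = 7.12e-05, edgeR). *fbn-1*, a fibrillin-like protein of the apical matrix that is needed in molting, had 178 and 170 CPM in *xpc-1*, 408 and 13.2 CPM in *csb-1*, and 91.5 and 90.1 CPM in wild-type (0.96, SE 0.09, adjusted p = 8.32e-05, edgeR). Both genes were thus high in *xpc-1* and in *csb-1* replicate 1 and low in *csb-1* replicate 2.

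*lin-42*, the PERIOD homologue that times larval molts, followed the same order with 118 and 119.3 CPM in *xpc-1*, 221 and 9.13 CPM in *csb-1*, and 69.7 and 68.0 CPM in wild-type (0.80, SE 0.09, adjusted p = 0.000180, edgeR). So did *clec-78*, which encodes a C-type lectin domain protein, with 369 and 401 CPM in *xpc-1*, 589 and 4.36 CPM in *csb-1*, and 197 and 223 CPM in wild-type (0.89, adjusted p = 0.000223, edgeR). *egl-18* (a GATA factor of the epidermal seam cells), *cnt-2* (an Arf GTPase-activating protein), *F53H1.4* and *frm-5.1* (a FERM domain protein) rose by 0.77, 0.66, 0.64 and 0.63. Members above 2-fold but below the 10 CPM minimum for this list, named after their values were seen, were *set-24* (1.11) and *F10E9.7* (1.02). *Y97E10AR.4* (1.47) was also named that way, with 10.6 and 11.9 CPM in *xpc-1* against 3.97 and 4.27 CPM in wild-type. *F10E9.7* has 10 protein-coding genes inside its span and 19.3% of its exon length overlaps other genes.

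The summed markers of epidermis, molting and germline were higher in *xpc-1* and in *csb-1* replicate 1 and lower in *csb-1* replicate 2, as *cdc-25.2*, *fbn-1*, *lin-42* and *clec-78* were. The summed TPM of 5 molting genes was 411 and 418 in *xpc-1*, 828 and 9.88 in *csb-1*, and 203 and 209 in wild-type. The 5 epidermal markers summed to 315 and 343 in *xpc-1*, 563 and 24.9 in *csb-1*, and 183 and 185 in wild-type. The 5 germline markers summed to 161 and 164 in *xpc-1*, 264 and 22.2 in *csb-1*, and 53.9 and 50.6 in wild-type. In *xpc-1* all 5 germline markers, 4 of 5 molting markers and 2 of 5 epidermal markers lay above wild-type without overlap. The collagen gene *rol-6* (1.37 and 1.07 TPM in *xpc-1*, 4.08 and 2.48 TPM in wild-type) and the molting protease *nas-37* lay below it, and *dpy-7* and *noah-1* held most of the epidermal and molting sums in *xpc-1* and wild-type. Their part in the results for *fbn-1*, *lin-42* and the other members was not tested.

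The members that fell most in *xpc-1*, besides *xpc-1* itself, included a neuropeptide receptor and potassium channels. *pdfr-1*, the receptor of the PDF neuropeptides, had 39.3 and 37.8 CPM in *xpc-1*, 23.7 and 111 CPM in *csb-1*, and 77.7 and 73.2 CPM in wild-type (−0.95, SE 0.09, adjusted p = 0.000120, edgeR's quasi-likelihood test). *egl-23*, a K2P potassium channel, had 10.6 and 12.4 CPM in *xpc-1*, 6.25 and 19.4 CPM in *csb-1*, and 23.6 and 21.4 CPM in wild-type (−0.95, SE 0.14, adjusted p = 0.000801, edgeR). *kvs-5*, a voltage-gated potassium channel, had 42.8 and 45.4 CPM in *xpc-1*, 17.7 and 113 CPM in *csb-1*, and 77.4 and 82.3 CPM in wild-type (−0.84, SE 0.09, adjusted p = 0.000222, edgeR). All 3 genes were low in *csb-1* replicate 1 as well, while in *csb-1* replicate 2 *pdfr-1* and *kvs-5* were above wild-type and *egl-23* just below it.

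*abu-8*, of a gene family named for its activation when the unfolded protein response is blocked, had 96.7 and 106 CPM in *xpc-1*, 28.1 and 0.919 CPM in *csb-1*, and 170 and 202 CPM in wild-type. It fell in *xpc-1* (−0.86, SE 0.11, adjusted p = 0.000388, edgeR) and was the lowest member in *csb-1*. Its span is mostly an intron of 29632 bp with 7 protein-coding genes inside, and reads can be shared with other family members. *unc-22*, *Y105C5A.15* and *H10D18.5* fell by 0.92, 0.90 and 0.85 on the log2 scale.

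Of the 120 members past the threshold, 16 stayed past it when each of the 4 libraries was left out in turn. The 8 higher were *Y97E10AR.4*, *cdc-25.2*, *fbn-1*, *clec-78*, *lin-42*, *cnt-2*, *F53H1.4* and *smc-3*. The 8 lower were *xpc-1*, *pdfr-1*, *abu-8*, *H10D18.5*, *kvs-5*, *unc-77*, *unc-79* and *nep-26*. *unc-77* encodes a pore subunit of the sodium leak channel and *unc-79* a protein needed for that channel. *nep-26* encodes a neprilysin-type peptidase. Calls also fell among all genes tested when a library was left out, and the share of those that stayed in every such fit is not given here.

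Of the 260 long genes, 73 stood on 7 lists of genes with known roles, which were drawn up from textbook knowledge with earlier results of these data known. The 8 synaptic members were all lower in *xpc-1* than in wild-type without overlap, and 7 were past the threshold, with a median log2 fold change of −0.46. Of all genes tested, 34.6% lay below wild-type without overlap and 16.6% were past the threshold and lower. *rbf-1* (rabphilin) had 27.5 and 36.0 CPM in *xpc-1*, 21.3 and 105 CPM in *csb-1*, and 53.0 and 59.4 CPM in wild-type (−0.81, adjusted p = 0.00183, edgeR). *unc-43* (the calcium/calmodulin-dependent kinase CaMKII), *egl-8* (phospholipase C beta), *pkc-1* (a protein kinase C of neurosecretion) and *cla-1* fell by 0.31, 0.46, 0.36 and 0.56 on the log2 scale. The other called members were *snt-5* (a synaptotagmin) and *unc-104* (the kinesin that carries synaptic vesicle precursors), whereas *nrx-1* (neurexin) was not past the threshold (−0.20, adjusted p = 0.104, edgeR). Most of the 7 calls were lost without either wild-type library, as among all genes tested, and fewer were lost without either *xpc-1* library. The median of the 8 stayed between −0.54 and −0.40 with a library left out in turn. All 8 stayed below wild-type in each of these fits. Of the 40 synaptic genes that are not members, 19 fell and 4 rose.

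Of the 9 listed ion channel and transporter members, 5 were lower, 0 higher and 4 not past the threshold, with a median of −0.49. Of all genes tested, 16.6% were lower and 19.5% higher. The list is not complete: *kcnl-1*, *kvs-5* and *unc-77*, given above as channel genes, stood on no list. *unc-80* (a further protein of the sodium leak channel) had 162 and 148 CPM in *xpc-1*, 131 and 231 CPM in *csb-1*, and 249 and 224 CPM in wild-type (−0.59, adjusted p = 0.00148, edgeR). *itr-1* (the IP3 receptor), *unc-79*, *unc-103* (an ERG-type potassium channel) and *egl-23* were the other 4. *mca-3*, *ncx-1*, *slo-1* (a calcium-activated potassium channel) and *pezo-1* (a Piezo channel) were not past the threshold. Fewer of the 9 were past the threshold without either wild-type library, as among all genes tested, but not fewer without either *xpc-1* library. Their median stayed between −0.51 and −0.48 with a library left out in turn. Of the 67 channel genes that are not members, 33 fell and 2 rose.

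Summed TPM of 6 neuronal markers was 921 and 972 in *xpc-1*, 940 and 486 in *csb-1*, and 995 and 1015 in wild-type. The markers did not move together: *snb-1*, the most abundant, overlapped wild-type, *unc-119* lay above it with 69.0 and 85.0 TPM in *xpc-1* against 43.8 and 54.8 TPM, and the other 4 lay below it. *rab-3*, a synaptic vesicle GTPase, had 110 and 122 TPM in *xpc-1*, against 154 and 152 TPM in wild-type. The part of these markers in the synaptic and channel results was not tested.

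Among the 18 adhesion, matrix and guidance members the direction was the other way, with 9 higher, 2 lower and a median of 0.26 (7 higher and 2 lower, median 0.18, with upper-quartile scaling). Over all genes tested the shares were 19.5% higher and 16.6% lower. The higher members were *fbn-1*, the cadherins *cdh-1*, *cdh-4*, *cdh-8* and *cdh-12*, *vab-1* (an Eph receptor), *ten-1* (teneurin), *unc-5* (a netrin receptor) and *mig-10* (lamellipodin). *cdh-4*, a Fat-type cadherin, had 570 and 485 CPM in *xpc-1*, 888 and 218 CPM in *csb-1*, and 422 and 357 CPM in wild-type (0.46, adjusted p = 0.0134, edgeR). *dig-1* and *gon-1*, an ADAMTS protease that shapes the gonad, fell by 0.55 and 0.46. *mig-6* and *sax-7* (an L1CAM-type adhesion protein) were not past the threshold. Most of these calls were lost without either wild-type library, as among all genes tested, and fewer were lost without either *xpc-1* library. The median of the 18 stayed between 0.26 and 0.30 with a library left out in turn. Of the 66 listed genes that are not members, 32 rose and 8 fell.

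Muscle and cytoskeleton members gave 4 lower and 1 higher of 9, with a median of −0.18, while 16.6% of all genes tested were lower and 19.5% higher. All of these calls were lost without either wild-type library, where most calls among all genes tested were lost too. Fewer were lost without either *xpc-1* library. The median of the 9 was between −0.32 and −0.21 with a library left out in turn. Of the 33 listed genes that are not members, 6 rose and 8 fell, with a median of 0.04. *unc-22* had 553 and 381 CPM in *xpc-1*, 368 and 1183 CPM in *csb-1*, and 1030 and 756 CPM in wild-type (−0.92, SE 0.19, adjusted p = 0.00443, edgeR). *unc-68* (the ryanodine receptor), *let-805* (myotactin, which links muscle to epidermis) and *ketn-1* (kettin) fell by 0.39, 0.32 and 0.29. *sma-1*, the heavy beta-spectrin of epithelia, rose to 954 and 870 CPM in *xpc-1*, against 722 and 654 CPM in wild-type (0.43, adjusted p = 0.00932, edgeR). *unc-44* (ankyrin) and *unc-52* (perlecan) were not past the threshold. Body wall muscle markers summed to 3161 and 3061 TPM in *xpc-1*, 2687 and 2209 TPM in *csb-1*, and 3988 and 3953 TPM in wild-type. In *xpc-1* 4 of the 5 lay below wild-type, whereas *hlh-1*, the MyoD homologue, lay above it with 47.9 and 49.9 TPM against 34.8 and 43.1 TPM. Their part in these values was not tested.

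Of 10 transcription and chromatin members, 4 rose and 1 fell (4 and 3 with upper-quartile scaling), against 19.5% and 16.6% of all genes tested. *egl-18*, *gei-8* (an NCoR-type corepressor), *nurf-1* and *din-1* (a SHARP-type corepressor) rose by 0.77, 0.48, 0.47 and 0.38, *crh-1* (CREB) fell by 0.30, and *hlh-30* was not past the threshold. Of 15 signalling members, 2 rose and 6 fell, beside the same 19.5% and 16.6% of all genes. *lit-1* (the Nemo-like kinase) was among those that rose, by 0.52. *pde-4* (a cAMP phosphodiesterase), *mgl-3* (a metabotropic glutamate receptor), *gbb-2* (a GABA-B receptor subunit), *tpa-1* (a protein kinase C), *dkf-2* and *pdfr-1* fell, and *par-1* and *egl-4*, which encode kinases, were not past the threshold. Most calls on both lists were lost without either wild-type library, as among all genes tested. With a library left out in turn, medians were between −0.01 and 0.17 in transcription members and between −0.11 and −0.09 in signalling members. Among listed genes that are not members, 67 of 137 transcription genes rose and 14 fell. Of 123 such signalling genes, 33 rose and 30 fell.

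**Figure D4:**
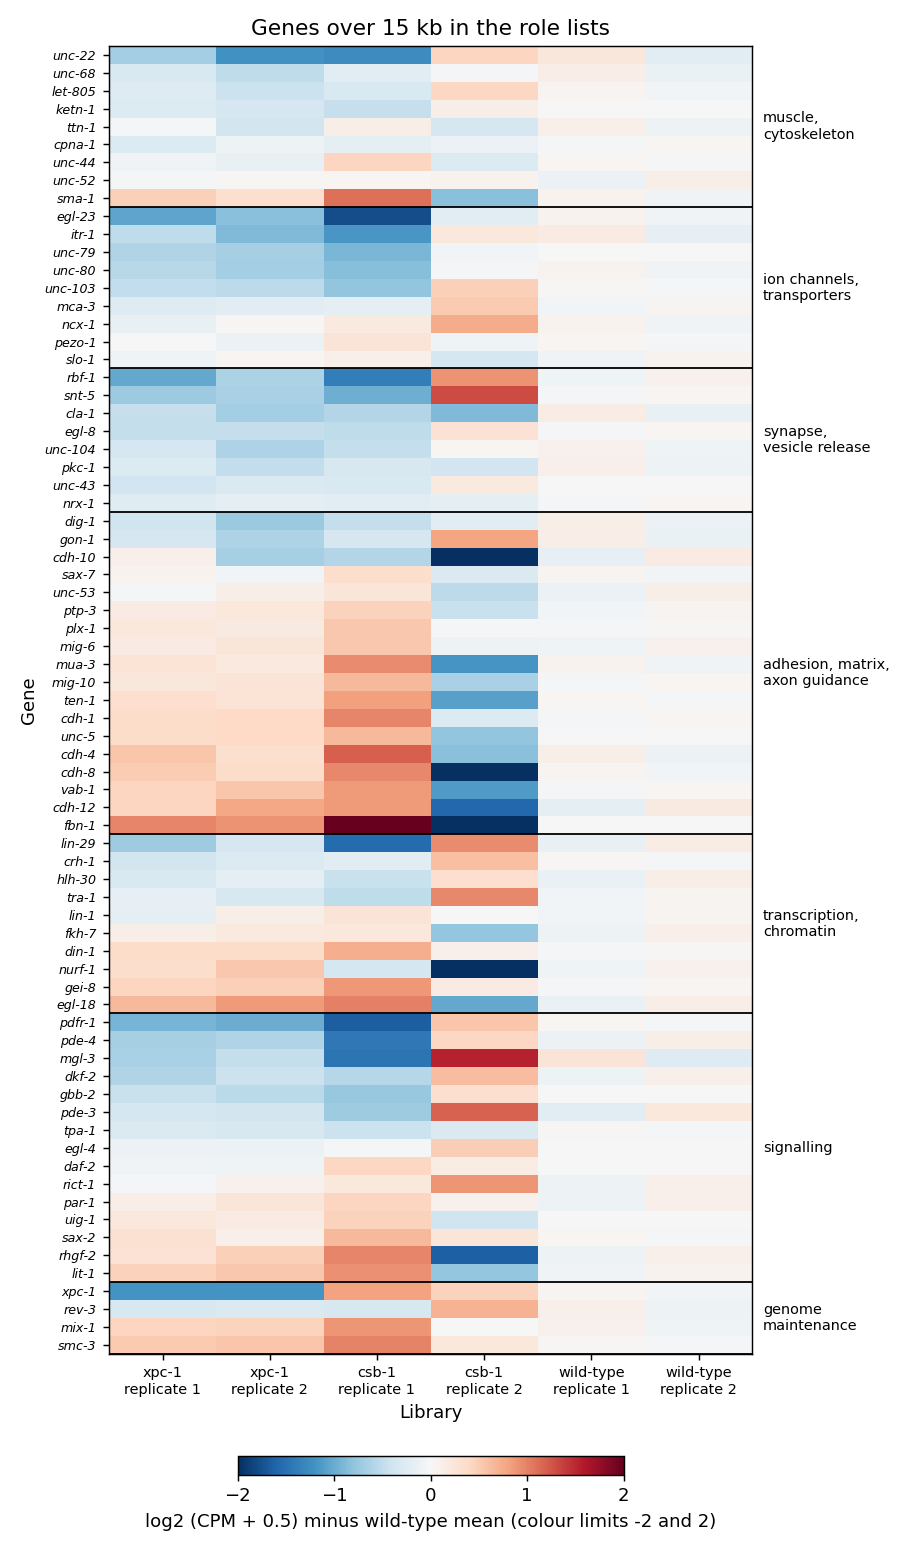
Log2 (CPM + 0.5) of each of the 73 listed long genes in each library minus its wild-type mean, with genes sorted by the *xpc-1* log2 fold change within each list and colours limited to −2 and 2. Synaptic and channel genes are mostly blue in both *xpc-1* libraries and in *csb-1* replicate 1, adhesion and matrix genes are mostly red there, and *csb-1* replicate 2 often has the other colour.

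The 4 genome maintenance members gave 2 higher and 1 lower, where 36.1% of all genes tested were past the threshold in either direction. The 1 lower is *xpc-1*, the gene mutated in this strain. *smc-3*, a cohesin subunit, had 126 and 129 CPM in *xpc-1*, 174 and 101 CPM in *csb-1*, and 88.7 and 86.2 CPM in wild-type (0.56, SE 0.09, adjusted p = 0.00105, edgeR). *mix-1*, an SMC subunit of condensin and of the dosage compensation complex, had 179 and 181 CPM in *xpc-1*, 243 and 132 CPM in *csb-1*, and 140 and 125 CPM in wild-type (0.46, adjusted p = 0.00438, edgeR). *rev-3*, the catalytic subunit of DNA polymerase zeta, was low in all strains, at 5.74 and 5.89 CPM in *xpc-1*, 5.72 and 12.1 CPM in *csb-1*, and 7.87 and 6.75 CPM in wild-type, and was not past the threshold.

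*xpd-1*, the TFIIH helicase that opens DNA around a lesion, is also a member but not on that list, and was named after its values were seen. It had 29.0 and 32.0 CPM in *xpc-1*, 40.3 and 47.0 CPM in *csb-1*, and 29.3 and 27.0 CPM in wild-type. Both *csb-1* libraries were above wild-type, but the gene was past the threshold in neither strain (0.13, adjusted p = 0.412 in *xpc-1* and 0.63, adjusted p = 0.996 in *csb-1*, edgeR). Of the 50 genome maintenance genes that are not members, 28 rose and 2 fell in *xpc-1*.

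In *csb-1* against wild-type, no long gene was past the threshold, as was the case for all 18421 genes tested (0%). At an unadjusted p under 0.05, edgeR's quasi-likelihood test gave 512 of the 18421 genes and 3 of the 260 members. These 3, named after their values were seen, were *vhp-1*, *jun-1* and *F53E4.1*. DESeq2 called 0 members and 56 of all genes (0.304%, with 0.00543% higher and 0.299% lower). At an unadjusted p under 0.05, DESeq2 gave 2 members and 723 of all genes. *vhp-1* had 205 and 187 CPM in *csb-1*, 372 and 349 CPM in *xpc-1*, and 429 and 467 CPM in wild-type. *jun-1*, a homologue of the transcription factor Jun, had 47.5 and 52.3 CPM in *csb-1*, against 93.2 and 82.8 CPM in wild-type, and 22.3% of its exon length overlaps another gene. In these genes both *csb-1* libraries were close to each other and below wild-type, and each gene also fell in *xpc-1*.

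The direction of the whole group in *csb-1* depended on scaling. With TMM the median log2 fold change was 0.14 in long genes, 0.14 in all genes tested and 0.23 in shorter genes of equal expression. With library size alone, which moved the median of all genes to −0.10, it was −0.07 in long genes and 0.00 in shorter genes. Long genes were thus 0.09 and 0.07 below the shorter genes on the log2 scale. With replicate 1 as the only *csb-1* library the difference was 0.07 in the other direction, and with replicate 2 alone it was −0.09.

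The *csb-1* libraries disagreed on most members. Relative to the wild-type mean, 74 members were higher in both and 34 lower in both, 79 were higher in replicate 1 and lower in replicate 2, and 73 the reverse. The libraries were more than 2-fold apart in 97 members, against 0 in *xpc-1* and 0 in wild-type. The largest gaps included *clec-78*, with 589 and 4.36 CPM, *fbn-1*, with 408 and 13.2 CPM, and *lin-42*, with 221 and 9.13 CPM in replicates 1 and 2. In the opposite direction, *kvs-5* had 17.7 and 113 CPM.

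With replicate 1 as the only *csb-1* library, 99 members were higher and 73 lower (66.2%, against 53.9% of all genes, 26.7% higher and 27.2% lower), and with replicate 2 alone 82 were higher and 68 lower (57.7%, against 51.4%, 23.6% higher and 27.8% lower). In each of those fits the lone *csb-1* library is assumed to vary like the wild-type libraries. Shorter genes of equal expression had a larger share of calls than members in each fit, so the excess over all genes was not particular to long genes. With replicate 2 alone, the share of lower genes was nevertheless larger in members. The median size of change, without its sign, was 0.50 in long genes and 0.59 in these shorter genes with replicate 1 alone. With replicate 2 alone it was 0.47 and 0.58.

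**Figure D5:**
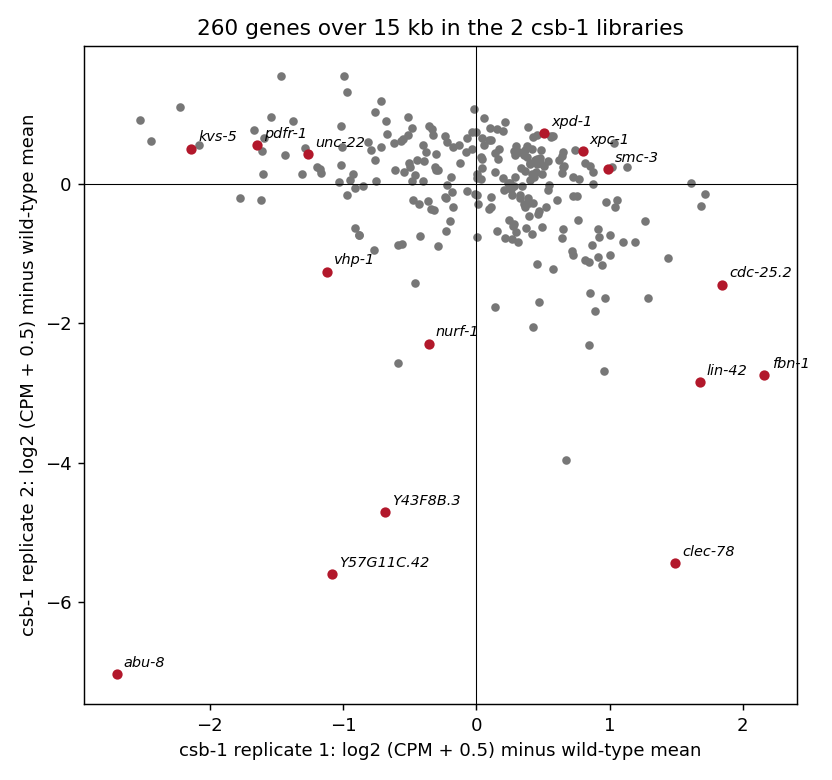
Log2 (CPM + 0.5) minus the wild-type mean of the 260 long genes in *csb-1* replicate 1 (horizontal) and replicate 2 (vertical), with some genes named in the text in red. The points do not follow a rising diagonal: 79 genes lie at lower right and 73 at upper left, and *abu-8* is lowest in both libraries.

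Both *csb-1* libraries lay above both wild-type libraries in 60 members and below them in 31 (35.0%, against 32.8% of all genes tested, of which 13.3% were above and 19.5% below). The highest log2 fold changes among such members with at least 10 CPM belonged to *acsd-1* (0.85, SE 0.41), *frm-5.1* (0.76, SE 0.46), *F53H1.4* (0.68, SE 0.40) and *smc-3* (0.65, SE 0.40). *acsd-1*, a homologue of the tryptophan pathway enzyme ACMSD, had 22.5 and 16.2 CPM in *csb-1* and 10.8 and 10.6 CPM in wild-type. *frm-5.1* had 41.0 and 21.8 CPM in *csb-1* and 17.1 and 19.99 CPM in wild-type, so that replicate 2 lay only just above. *F53H1.4* had 207 and 121 CPM in *csb-1*, 162 and 152 CPM in *xpc-1*, and 105 and 99.6 CPM in wild-type, so that both mutants lay above wild-type. The mutant comparisons share the wild-type libraries and are not independent of each other.

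The lowest were *abu-8* (−3.68, SE 1.67), *Y57G11C.42* (−2.06, SE 1.64), *Y43F8B.3* (−1.63, SE 1.37) and *vhp-1* (−1.19, SE 0.34), all with an adjusted p of 0.996 in edgeR's quasi-likelihood test. *Y57G11C.42* had 26.6 and 0.689 CPM in *csb-1*, against 55.0 and 59.0 CPM in wild-type, and *Y43F8B.3* had 99.4 and 5.66 CPM, against 131 and 195 CPM. The size of the first 3 came mainly from *csb-1* replicate 2, whereas *vhp-1* was alike in both.

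By role, the *csb-1* libraries differed most in the adhesion, matrix and guidance members, whose median log2 difference from wild-type was 0.65 in replicate 1 and −0.72 in replicate 2. The channel members had medians of −0.79 and −0.03, and the synaptic members −0.49 and 0.12. Genome maintenance members had 0.84 and 0.34. The summed epidermal and molting markers given above were high in *csb-1* replicate 1 and low in replicate 2. In replicate 1 *dpy-7*, *lin-26*, *mlt-10*, *mlt-11*, *noah-1* and *nekl-2* lay above both wild-type libraries. *rol-6* (2.28 TPM against 4.08 and 2.485 TPM in wild-type), *nas-37* and *bli-1* lay below them, and *col-19* between them. *dpy-7* (0.036 TPM) and *mlt-11* (0.105 TPM) were near 0 in replicate 2 only. Intestinal markers summed to 606 TPM in *csb-1* replicate 1 and 1942 TPM in replicate 2, against 990 and 1130 TPM in wild-type, mostly through *act-5* (300.3 and 1525 TPM in *csb-1*, 596 and 729 TPM in wild-type). The intestinal GATA factors *elt-2* and *elt-7* went the other way, with 29.9 and 13.9 TPM in *csb-1* against 22.3 and 21.9 TPM for *elt-2*. Their part in the spread of the members was not tested.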

How the data were processed

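The authors aligned poly(A) RNA-seq reads with STAR, kept proper pairs with a mapping quality of at least 30, removed mitochondrial reads and counted reads on exons with featureCounts 2.0.4. The deposited values are raw counts per gene without normalization. Per the file headers the annotation was Ensembl 105 of WBcel235, whereas the methods name WS295, and neither a strand option nor counting of read pairs was set, so both mates were counted and a count is not an independent molecule. The other deposited columns give exon coordinates and summed exon length. The libraries held 41643033 to 48371365 counts. Each library was used as a replicate, since in no strain were the 2 libraries alike within counting noise, which does not show that they came from separate cultures.

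Span was the largest exon end minus the smallest exon start plus 1. Counts divided by exon length were scaled to TPM. The quasi-likelihood test of edgeR (TMM, Benjamini-Hochberg over all 18421 genes, threshold 0.05) was applied to genes reaching 10 counts in 2 or more of 6 libraries, in fits of the 4 libraries compared. This design was preferred to a fit of 6 libraries because the *csb-1* libraries were known to differ, and the paper states no test. Members, lists, tests and named genes were chosen with earlier results of these data known. Named genes were the 10 longest members, the 8 with the highest wild-type TPM, the 8 highest and 8 lowest called in *xpc-1* and the 4 highest and 4 lowest in *csb-1* among members with at least 10 CPM and libraries on the same side of wild-type, *xpc-1*, the genes at the threshold of span, and up to 4 members of each role list. R 4.3.3, edgeR 4.0.16, limma 3.58.1, DESeq2 1.42.0, Python 3.11.15, numpy 2.4.6, pandas 2.3.3 and matplotlib 3.10.9 were used. Alternatives were DESeq2, other scalings and filters, 6 libraries, the replicate number as a block, other spans and matchings, and leaving out each library. Promoter and protein sequences, GC content and dinucleotides were not analysed here.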

Additional observations from a re-analysis of the deposited data

How the results depend on the processing

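Calls in *xpc-1* (58 higher, 62 lower) changed with the fit: 0 and 0 with 6 libraries, 90 and 90 with the replicate number as a block, 152 and 140 of 627 genes over 10 kb, 29 and 28 of 135 over 20 kb, and 10 to 43 higher and 10 to 51 lower when a library was left out. The labels do not say whether the replicate numbers pair the samples. With 2 libraries per strain, deviations correlated at 0.260 between wild-type and *xpc-1*, −0.00363 between wild-type and *csb-1* and 0.0174 between *csb-1* and *xpc-1*. In *xpc-1* the block called 9004 of all genes tested, against 6647 without it. With the block, 0 members were called in *csb-1*. In *csb-1* (0 called), leaving out a library gave 0 to 99 higher and 0 to 73 lower. The median *xpc-1* log2 fold change (−0.01) was −0.086 with upper-quartile scaling, 0.050 over 10 kb and −0.050 to 0.026 without a library. Its difference from shorter genes (−0.05) was 0.015 over 10 kb, −0.023 over 20 kb, −0.023 matched on wild-type TPM, −0.13 beside shorter genes of like exon length and −0.095 to −0.013 without a library, so its sign turned at 10 kb. The *csb-1* median (0.14) was 0.21 with DESeq2, −0.065 with library size only, 0.043 with the replicate block, 0.070 with upper-quartile scaling, 0.17 over 10 kb and 0.11 to 0.20 without a library, and its difference from shorter genes (−0.09) was −0.10 to 0.069 without a library. Median TPM from span was 10.9 in *xpc-1*, 9.28 in *csb-1* and 9.97 in wild-type. Median TPM from exon length, at spans over 10 and 20 kb, was 32.8 and 38.8 in *xpc-1* and 29.7 and 36.96 in wild-type. This exon-based median was 36.0 in *xpc-1* without the 37 genes in which an intron outweighs the rest of the span, an alternative chosen after seeing the data. Without a library the exon-based median was 35.4 to 35.7 in *xpc-1*, 18.3 to 41.8 in *csb-1* and 33.8 to 34.4 in wild-type.

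Of 58 named members in *xpc-1*, 40 were past the threshold, and all of these were lost with 6 libraries. Signs turned only in genes not past the threshold: *unc-52* at −0.012 (6 libraries) and −0.072 (upper quartile), *Y94H6A.5* at −0.035 and *sax-7* at −0.052 (upper quartile), and, without a library in turn, *Y43F8B.3* from −0.34 to 0.25, *Y94H6A.5* from −0.064 to 0.15, *ncx-1* from −0.13 to 0.039, *unc-52* from −0.11 to 0.14, *pezo-1* from −0.097 to 0.020 and *sax-7* from −0.038 to 0.090.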
